A study of Homo sapiens with 12 samples.

Results

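ATF4 and 9 genes of the amino acid stress response were followed in SKBR-3 cells, an established HER2-amplified and ER-negative breast cancer cell line. The genes were ATF4, ATF3, DDIT3, CHAC1, TRIB3, PSAT1, PHGDH, ASNS, DDIT4 and SESN2. They were chosen by symbol, and all 10 were found among the 20531 genes of the deposited tables. PolyA RNA was sequenced from 12 libraries, 3 replicates in each of 4 groups. Cells were transfected with siRNA, either a non-targeting (NT) pool or a pool against FOXA1, and were treated afterwards for 24 h with the solvent DMSO or with 300 nM lapatinib. Lapatinib inhibits the HER2 and EGFR kinases, and FOXA1 is a pioneer transcription factor of luminal breast cells. The comparisons asked whether the expression response to HER2 inhibition changes when FOXA1 is depleted. All 4 groups carried an siRNA pool, so no untransfected cells enter the comparisons, and each pool was used in this 1 cell line. The labels place the siRNA 48 h before the drug, whereas the methods give 24 h.

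Cells respond to a shortage of amino acids, to unfolded protein in the endoplasmic reticulum and to other stresses by phosphorylating the translation factor eIF2alpha. This integrated stress response lowers general protein synthesis but raises translation of the ATF4 mRNA, whose leader carries short upstream reading frames, so ATF4 protein can rise without a change in its transcript. ATF4 is a bZIP transcription factor that induces partner factors (ATF3, and CHOP encoded by DDIT3), feedback regulators (TRIB3), enzymes of amino acid and glutathione metabolism (ASNS, PSAT1, PHGDH, CHAC1) and inhibitors of the growth kinase mTORC1 (DDIT4, SESN2). The libraries measured transcripts only.

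ATF4 binds a composite C/EBP-ATF element, known from amino acid response genes, which was searched as TGATGNAA on both strands of the promoter of each gene (250 bases before to 50 after the first start that RefSeq lists for it, GRCh38.p14). A match was present in 3 of the 10 promoters and in 3.67% of 27305 promoters of that length. Elements outside these windows were not counted. The 3 matches are shown because these promoters belong to a partner factor, an amino acid enzyme and a glutathione enzyme with different responses below. Capitals mark the match. In the ATF3 promoter (chr1:212565190-212565249, plus strand) it began 191 bases before the start, in the ASNS promoter (chr7:97872458-97872487, minus strand) 68 bases before it, and in the CHAC1 promoter (chr15:40953251-40953280, plus strand) 209 bases before it, there on the strand opposite to the gene. The ASNS start used, at 97872408, is 1 of 2 listed starts and lies 56033 bases inside the outer end of the annotated gene. For TRIB3 it is 1 of 3 listed starts and lies 535 bases inside the outer end. The ASNS and CHAC1 windows overlap UTRs annotated in GENCODE.
ATF3: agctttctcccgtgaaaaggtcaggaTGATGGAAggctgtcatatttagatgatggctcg
ASNS: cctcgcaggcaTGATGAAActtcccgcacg
CHAC1: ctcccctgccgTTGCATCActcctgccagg
The forkhead letters GTAAACA and GTCAACA, searched in the same way, were in 3.41% and 2.39% of all promoters and in 0 of the 10 windows. A match is a description of the letters and not of binding.

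The siRNA target was lower in every library that received its pool. FOXA1 had normalized counts (counts at the average depth of the 12 libraries) of 8446, 8309 and 8767 with NT siRNA and DMSO against 1160, 1362 and 1564 with FOXA1 siRNA and DMSO, for replicates 1, 2 and 3 in that order, as in all lists of values here. With lapatinib it had 12672, 12168 and 13176 against 1642, 1889 and 2384. The log2 fold change was -2.63 without drug and -2.69 with it. Total counts ran from 25749578 to 32271850 per library. The summed level of 7 luminal and HER2-amplicon markers was 14339 to 16279 TPM (a transcript level per length) with NT siRNA and DMSO, 18772 to 19428 with NT siRNA and lapatinib, 12361 to 13175 with FOXA1 siRNA and DMSO and 14678 to 15658 with FOXA1 siRNA and lapatinib. In all libraries 4 fibroblast markers summed to at most 5.79 TPM, 4 leukocyte markers to at most 1.89 TPM, and the hormone receptor genes ESR1 and PGR to under 1 TPM. With NT siRNA, mean TPM went with lapatinib from 3073 to 5981 for ERBB2 and from 322 to 1350 for GRB7. It went from 3891 to 4001 for KRT8, 2290 to 2469 for KRT18, 5180 to 5060 for KRT19 and 291 to 183 for EPCAM. Of the luminal markers, 6 of 7 were lower after FOXA1 siRNA in lapatinib, beside 22.2% of all genes. The part of this shift in the results below was not tested. CDH1, 1 of these 6, did not exceed 0.25 TPM in any library. In bulk RNA, fewer cells with a transcript and less of it per cell cannot be told apart.

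In control cells (NT siRNA, DMSO) the transcript levels per length spanned from ATF4 at 268 ± 24.3 TPM (SD, n = 3) to CHAC1 at 4.87 ± 1.29 TPM. TRIB3 at 179 ± 17.6 TPM and DDIT4 at 161 ± 60.9 TPM came next to ATF4, and their ranges overlapped each other. They were followed by ASNS at 103 ± 3.51 TPM, PSAT1 at 84.3 ± 8.17 TPM and PHGDH at 58.2 ± 2.19 TPM, whose ranges were separate. The lower levels were ATF3 at 18.5 ± 1.61 TPM with DDIT3 at 14.7 ± 3.14 TPM, which overlapped, and SESN2 at 6.45 ± 0.356 TPM, whose range overlapped that of CHAC1. All 10 passed the filter on low counts. RefSeq lists 4 pseudogenes of ATF4, 5 of ASNS and 4 of PSAT1, none of them in the tables, so reads of near-identical copies could be counted with the gene or lost. ASNS shares 2415 exon bases with the lncRNA ENSG00000284707 on its own strand and DDIT3 shares 105 with the gene ENSG00000285133 on its own strand. Neither was found in the tables, and reads of these stretches cannot be told apart by strand. DDIT3 also shares 355 exon bases with the methionyl-tRNA synthetase gene MARS on the opposite strand, and the sources used here do not state whether reads were counted by strand.

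**Figure D1:**
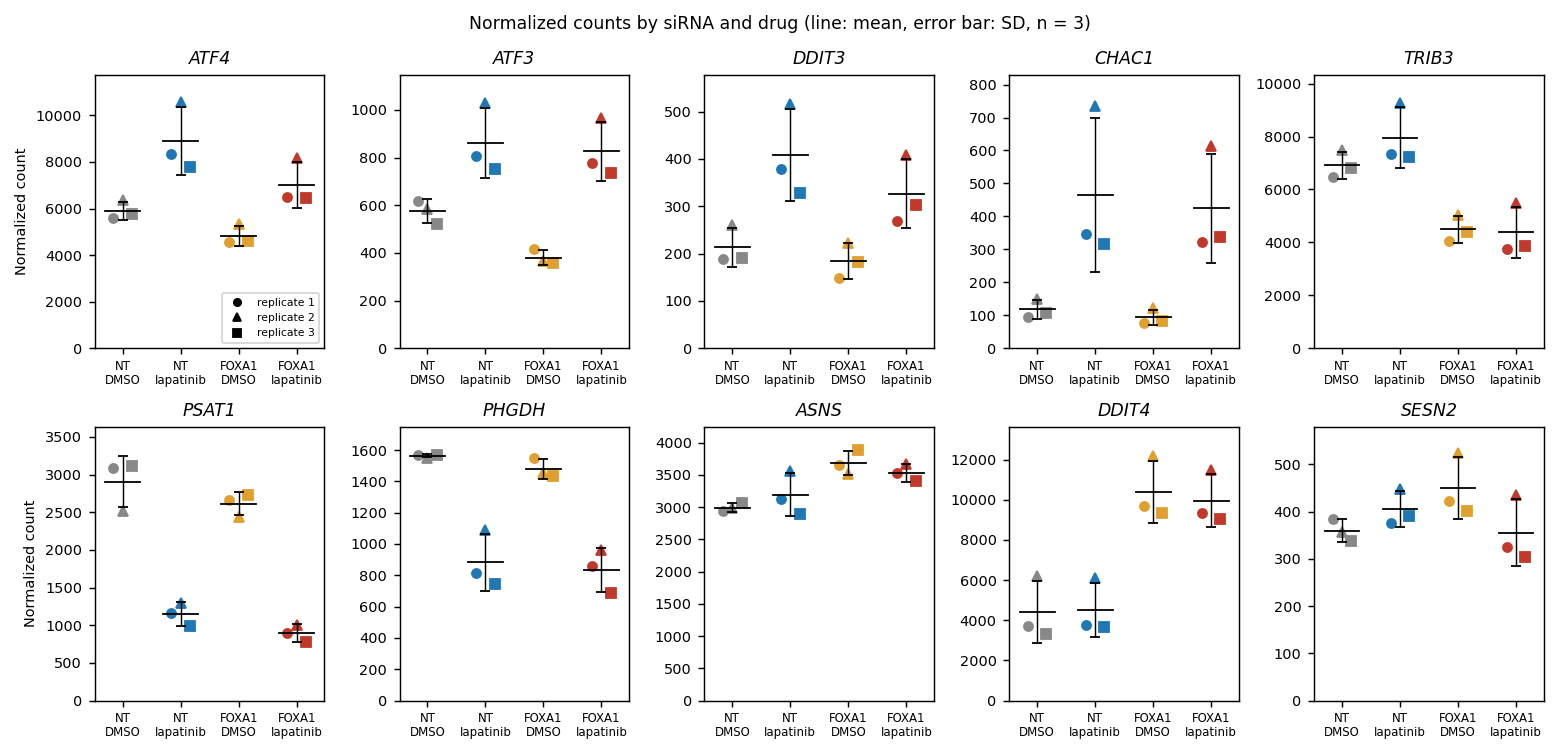
Normalized counts (y axes, each from 0) of the 10 stress genes in the 4 groups (x axes: siRNA over drug). Symbols are the replicates, horizontal lines the means and bars the SD (n = 3). The FOXA1 siRNA libraries treated with DMSO lie between 9354 and 12156 for DDIT4, all above the NT siRNA libraries, while the PSAT1 libraries with lapatinib lie at 1298 or below.

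Lapatinib with NT siRNA divided the genes. The stress factors ATF4, ATF3 and DDIT3 and the glutathione-degrading enzyme CHAC1 rose, the serine synthesis enzymes PSAT1 and PHGDH fell, and ASNS, TRIB3, DDIT4 and SESN2 did not pass the test. Thus 4 of 10 were higher and 2 of 10 lower at an adjusted p under 0.05 in edgeR's quasi-likelihood test (Benjamini-Hochberg over all 13713 genes tested). Of all genes tested, 30.5% were higher and 29.2% lower, so the number called is close to that background in both directions. With a change of at least 2-fold also required, 1 member was higher and 1 lower, beside 6.64% and 7.12% of all genes. The median log2 fold change was 0.21 over the 10 genes and 0.03 over all genes.

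CHAC1 (chromosome 15, 40953471 to 40956512, GRCh38.p14), which cleaves glutathione, changed most. It had normalized counts of 95.56, 149.7 and 108.3 in DMSO and 346.0, 735.6 and 316.0 in lapatinib. All lapatinib libraries were higher, and replicate 2 was far above the others. The log2 fold change was 2.0 ± 0.34 (SE), or 4.01-fold (adjusted p = 0.00115), and leaving out any 1 library gave 1.51 to 2.22. DDIT3 (chromosome 12, 57516588 to 57520517), whose product CHOP promotes apoptosis in prolonged stress, had 188.2, 260.8 and 189.8 in DMSO and 379.3, 516.9 and 328.3 in lapatinib. The groups did not overlap, and the log2 fold change was 0.96 ± 0.20 (adjusted p = 0.00316). MARS, the gene that overlaps it on the other strand, moved the other way with a log2 fold change of -0.48 ± 0.06 (adjusted p = 0.000310).

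ATF4 itself (chromosome 22, 39520559 to 39522686) had 5609, 6347 and 5758 in DMSO and 8328, 10576 and 7800 in lapatinib. The lapatinib libraries were all above the DMSO libraries. The log2 fold change was 0.61 ± 0.11, or 1.53-fold (adjusted p = 0.00152). ATF3 (chromosome 1, 212565407 to 212620777), a bZIP factor induced by many stresses, had 619.6, 583.1 and 519.6 against 807.3, 1029 and 752.0. It also rose without overlap, by 0.61 ± 0.13 on the log2 scale (adjusted p = 0.00324).

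PSAT1 and PHGDH catalyse successive steps of serine synthesis from a glycolytic intermediate, and both fell. PSAT1 (chromosome 9, 78297125 to 78330093) had 3088, 2517 and 3109 in DMSO and 1158, 1298 and 992.1 in lapatinib. PHGDH (chromosome 1, 119711934 to 119744215), the first enzyme of the pathway, had 1570, 1552 and 1568 against 812.0, 1090 and 742.8. The DMSO libraries of PHGDH differed little (SD 10.14), and the groups did not overlap for either gene. The log2 fold change was -1.32 ± 0.11 for PSAT1 (adjusted p = 2.63e-05) and -0.80 ± 0.13 for PHGDH (adjusted p = 0.000752).

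Of the remaining genes, ASNS (chromosome 7, 97851677 to 97928441), which makes asparagine and is widely used as an ATF4 readout, had 2933, 2981 and 3066 in DMSO and 3118, 3554 and 2899 in lapatinib. These ranges overlapped, and the log2 fold change was 0.11 (95% interval -0.06 to 0.28). TRIB3 (chromosome 20, 380760 to 397559), a pseudokinase that dampens ATF4 and CHOP activity, had 6477, 7475 and 6799 against 7352, 9284 and 7215. Its log2 fold change of 0.22 (95% interval -0.01 to 0.45, adjusted p = 0.0914) passed the test with the replicate number as a block (adjusted p = 0.00420). DDIT4 (chromosome 10, 72273924 to 72276036) and SESN2 (chromosome 1, 28259518 to 28282491) had log2 fold changes of 0.05 (95% interval -0.55 to 0.66) and 0.19 (95% interval -0.04 to 0.42). The interval of DDIT4 is wide because its replicate 2 stood at 6186 in DMSO and 6083 in lapatinib, beside 3326 to 3781 in the other libraries.

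After FOXA1 siRNA the same comparison again gave 4 higher and 2 lower of the 10, beside 29.0% and 29.1% of the 13745 genes tested. At 2-fold the counts were 2 and 1, beside 4.93% and 5.12%. CHAC1 rose from 76.94, 121.0 and 82.81 to 322.4, 615.1 and 336.8, a log2 fold change of 2.19 ± 0.29 (adjusted p = 0.000315). ATF3 rose from 414.7, 364.7 and 356.9 to 776.0, 965.9 and 735.9. For both genes all lapatinib libraries were above all DMSO libraries, and the log2 fold change of ATF3 was 1.13 ± 0.12 (adjusted p = 8.48e-05).

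ATF4 rose from 4551, 5326 and 4618 to 6479, 8167 and 6436, by 0.55 ± 0.10 on the log2 scale (adjusted p = 0.00186). DDIT3 rose from 147.9, 222.4 and 181.8 to 268.6, 408.5 and 302.0, by 0.83 ± 0.19 (adjusted p = 0.00605). The serine enzymes were again the genes that fell. PSAT1 went from 2669, 2437 and 2726 to 903.1, 1006 and 773.8, a log2 fold change of -1.54 ± 0.10 (adjusted p = 8.05e-06), and PHGDH from 1552, 1451 and 1432 to 857.6, 959.2 and 685.8, a log2 fold change of -0.82 ± 0.11 (adjusted p = 0.000365). All lapatinib libraries of both genes lay below all DMSO libraries.

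ASNS (-0.05, 95% interval -0.17 to 0.07), DDIT4 (-0.05, 95% interval -0.32 to 0.22) and TRIB3 (-0.03, 95% interval -0.36 to 0.31) had log2 fold changes near 0 after FOXA1 siRNA. SESN2, a leucine-sensing inhibitor of mTORC1, had 423.7, 524.8 and 400.7 in DMSO and 324.4, 436.3 and 305.0 in lapatinib. The groups overlapped through replicate 2, and the log2 fold change of -0.33 (95% interval -0.69 to 0.03, adjusted p = 0.101) passed the test with the replicate number as a block (adjusted p = 0.00285).

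**Figure D2:**
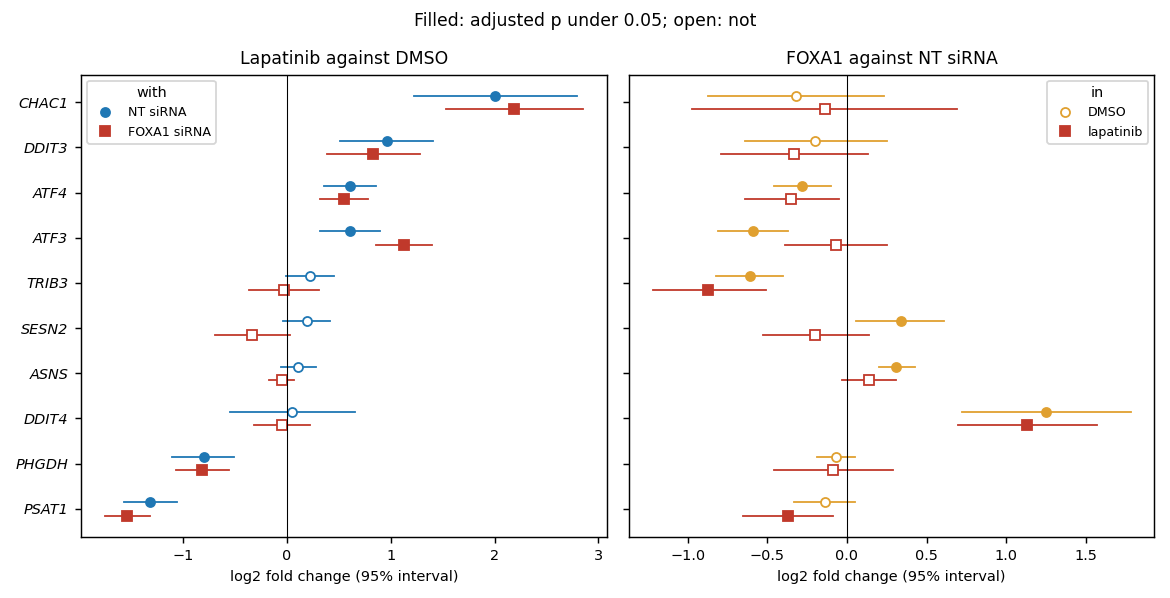
log2 fold changes (x axes) of the 10 genes for lapatinib against DMSO (left) and FOXA1 against NT siRNA (right), with 95% intervals. Filled symbols passed an adjusted p of 0.05. CHAC1 lies at 2.0 and 2.19 and PSAT1 at -1.32 and -1.54 on the left, and DDIT4 at 1.25 and 1.13 on the right, above the other 9 genes in both comparisons.

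FOXA1 siRNA without lapatinib changed 6 of the 10 members. DDIT4, which encodes the mTORC1 inhibitor REDD1, rose more than 2-fold, ASNS and SESN2 rose by less, and TRIB3, ATF3 and ATF4 fell. In all, 3 of 10 were higher and 3 lower, beside 21.9% and 21.3% of the 13694 genes tested. At 2-fold, 1 was higher and 0 lower, beside 4.06% and 2.77%. The libraries with NT siRNA and DMSO serve as the control here and in the first lapatinib comparison, so the values of the 2 comparisons are not independent.

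DDIT4 had 3694, 6186 and 3326 with NT siRNA and 9677, 12156 and 9354 with FOXA1 siRNA. The groups did not overlap although replicate 2 was the highest in each. The log2 fold change was 1.25 ± 0.23, or 2.38-fold (adjusted p = 0.00324). ASNS rose from 2933, 2981 and 3066 to 3654, 3510 and 3879, by 0.31 ± 0.05 (adjusted p = 0.00171), again with no overlap. SESN2 rose from 385.2, 356.0 and 337.5 to 423.7, 524.8 and 400.7. Its log2 fold change of 0.34 ± 0.12 stood at the threshold (adjusted p = 0.0499) and did not pass in 5 of the 6 fits that left out 1 library (log2 fold change 0.20 to 0.41, adjusted p up to 0.148).

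TRIB3 fell from 6477, 7475 and 6799 to 4045, 5054 and 4376, a log2 fold change of -0.61 ± 0.09 (adjusted p = 0.00127). ATF3 fell from 619.6, 583.1 and 519.6 to 414.7, 364.7 and 356.9, a log2 fold change of -0.59 ± 0.10 (adjusted p = 0.00191). For both genes every FOXA1 siRNA library was below every NT siRNA library. The fall of ATF4 was smaller, from 5609, 6347 and 5758 to 4551, 5326 and 4618, a log2 fold change of -0.28 ± 0.08 (adjusted p = 0.0218). It no longer passed without replicate 1 or without replicate 3 of the FOXA1 siRNA libraries (adjusted p = 0.0754 and 0.0813).

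The other 4 members had log2 fold changes of -0.32 (CHAC1, 95% interval -0.87 to 0.23), -0.20 (DDIT3, 95% interval -0.64 to 0.25), -0.14 (PSAT1, 95% interval -0.33 to 0.05) and -0.07 (PHGDH, 95% interval -0.19 to 0.05). With the replicate number as a block, CHAC1 (adjusted p = 0.0376) and PSAT1 (adjusted p = 0.0121) passed as well, which made 5 members lower, beside 30.2% of all genes in that fit.

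FOXA1 siRNA in the presence of lapatinib gave fewer calls, 1 higher and 2 lower of the 10, beside 22.7% and 22.2% of the 13727 genes tested. At 2-fold, 1 was higher and 0 lower, beside 4.50% and 3.90%. DDIT4 rose from 3781, 6083 and 3670 to 9358, 11488 and 9025. No FOXA1 siRNA library fell into the range of the NT siRNA libraries, and the log2 fold change was 1.13 ± 0.19 (adjusted p = 0.00178). TRIB3 fell from 7352, 9284 and 7215 to 3769, 5501 and 3872, by 0.87 on the log2 scale (SE 0.16, adjusted p = 0.00253), and again the groups did not overlap.

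PSAT1 was lower at 903.1, 1006 and 773.8 against 1158, 1298 and 992.1. One library of each group crossed into the range of the other, and the log2 fold change of -0.37 ± 0.12 (adjusted p = 0.0378) did not pass in 4 of the 6 fits that left out 1 library, those without replicate 1 or 2 of the NT siRNA group or without replicate 1 or 3 of the FOXA1 siRNA group (adjusted p up to 0.121). ATF4 had a log2 fold change of -0.35 (95% interval -0.64 to -0.05, adjusted p = 0.0575), and ATF3 of -0.07 (95% interval -0.39 to 0.25). With the replicate number as a block, ATF4 (adjusted p = 3.06e-06), DDIT3 (adjusted p = 0.00542) and SESN2 (adjusted p = 0.0458) passed as lower and ASNS (adjusted p = 0.00798) as higher, for 2 higher and 5 lower in all. In that fit 30.6% of all genes were higher and 31.1% lower.

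Whether FOXA1 siRNA changed the lapatinib response was tested by the interaction of siRNA and drug over all 12 libraries. In edgeR 0 of 10 members passed, beside 3.99% of 14012 genes with a higher and 3.20% with a lower response after FOXA1 siRNA. A higher response here means a higher log2 fold change for lapatinib, which for a gene that falls is a smaller fall. DESeq2 also called 0, and 2 members, ATF3 and SESN2, had an unadjusted p under 0.05. The response of ATF3 was higher by 0.54 on the log2 scale after FOXA1 siRNA (95% interval 0.13 to 0.94, unadjusted p = 0.0136, adjusted p = 0.109). The response of SESN2 differed by -0.51 (95% interval -0.95 to -0.08, unadjusted p = 0.0248, adjusted p = 0.151). With the replicate number as a block, both passed (adjusted p = 0.0137 and 0.0185), beside 11.1% of all genes with a higher and 9.22% with a lower response.

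Between libraries of the same number the log2 ratio of lapatinib to DMSO for ATF3 was 0.38, 0.82 and 0.53 with NT siRNA and 0.90, 1.40 and 1.04 with FOXA1 siRNA. The ratio was larger after FOXA1 siRNA in each of the 3 numbers. For SESN2 the ratios were -0.04, 0.33 and 0.21 against -0.38, -0.27 and -0.39, smaller in each number. Over the 10 members the ratio was larger after FOXA1 siRNA in each number for ATF3 and CHAC1, smaller in each for DDIT3, DDIT4, ASNS, TRIB3, SESN2 and PSAT1, and mixed for ATF4 and PHGDH. These are 2 and 6 members, beside 30.7% and 27.7% of 14012 genes. For TRIB3 the ratios were 0.18, 0.31 and 0.09 against -0.10, 0.12 and -0.18, with an interaction of -0.24 (95% interval -0.67 to 0.20, adjusted p = 0.555). Without the block, the interaction was -0.05 for ATF4 (95% interval -0.42 to 0.31) and 0.19 for CHAC1 (95% interval -0.91 to 1.30). These intervals leave room for differences in either direction. The same-number ratios of ATF4 were 0.57, 0.74 and 0.44 with NT siRNA against 0.51, 0.62 and 0.48 with FOXA1 siRNA. For CHAC1 they were 1.85, 2.29 and 1.54 against 2.05, 2.34 and 2.01.

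**Figure D3:**
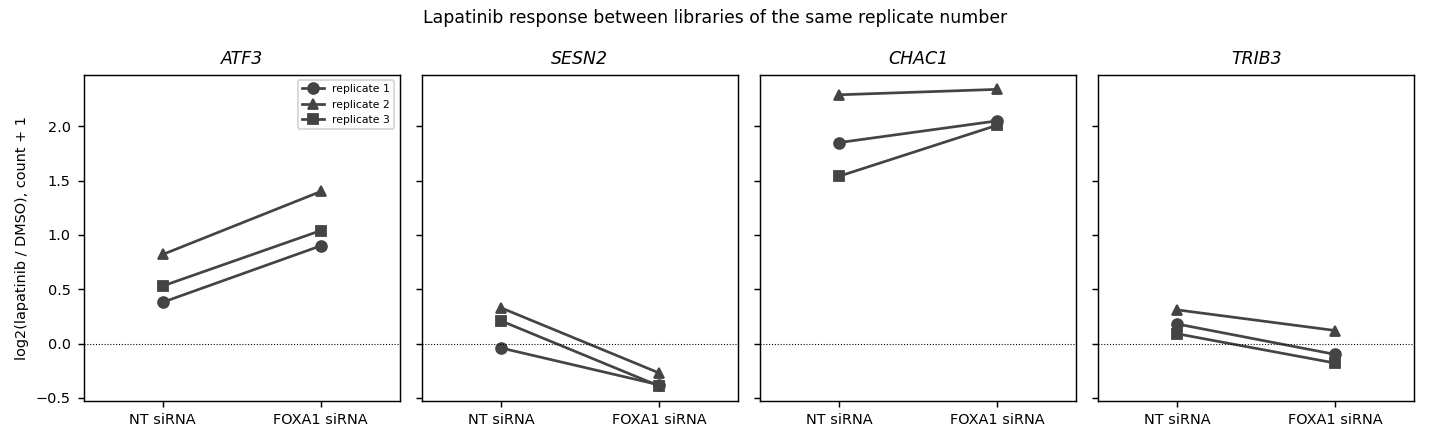
log2 ratio of lapatinib to DMSO (y axis, normalized count + 1) for ATF3, SESN2, CHAC1 and TRIB3 with NT or FOXA1 siRNA (x axis). Lines join libraries of the same replicate number. All 3 lines rise for ATF3, from 0.38 to 0.90 in replicate 1, and all 3 fall for SESN2 and TRIB3.

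The libraries numbered 2 stood apart for these genes. Of the 3 replicates, number 2 was the highest in all 4 groups for ATF4, DDIT3, DDIT4, CHAC1 and TRIB3, which is 5 of the 10 members, beside 12.2% of 14012 genes. Numbers 1 and 3 were the highest in all groups for 0 members, beside 4.46% and 5.07% of genes. Without the number 2 libraries of all groups, a setting added after the data were seen, the 6 calls of each lapatinib comparison held, and TRIB3 passed as higher with NT siRNA and TRIB3 and SESN2 as lower with FOXA1 siRNA. In DMSO the FOXA1 siRNA comparison then lost SESN2 (adjusted p = 0.0853) and gained PSAT1 as lower. In lapatinib it gave 2 higher and 5 lower (25.6% of all genes in each direction), and the interaction called ATF3 as higher and SESN2 and TRIB3 as lower, beside 10.3% and 7.87% of genes.

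The genes with expression most like that of ATF4 over the 12 libraries, of 10811 with a mean normalized count of at least 100, were CIRBP (Pearson's r 0.986), CAMK2G (0.986), FAM157A (0.982), N4BP3 (0.976) and SH3BP4 (0.975). For ASNS they were CREBZF (0.926), CAP2 (0.906), MAP3K3 (0.90), IER2 (0.898) and SRD5A1 (0.896). None of the 10 stress genes was among them. Their r with ATF4 was 0.965 for DDIT3, 0.924 for CHAC1, 0.906 for ATF3 and 0.631 for TRIB3. It was 0.026 for SESN2, -0.185 for ASNS, -0.271 for DDIT4, -0.601 for PHGDH and -0.663 for PSAT1. The highest r of a stress gene with ASNS was 0.835, for DDIT4. Within groups the r with ATF4 ran from 0.402 for PSAT1 to 0.993 for CHAC1. The number 2 library was the highest in all 4 groups for ATF4 and CHAC1, and in 2 groups for PSAT1. The share of that replicate number in the values within groups was not tested. The points share libraries and fall into 4 groups, so the values over the 12 libraries describe the pattern over the groups. None of these values was tested.

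Beyond PSAT1 and PHGDH, 9 enzymes and carriers of serine, glycine and folate-bound carbon metabolism were listed. With lapatinib and NT siRNA 7 of the 9 fell and 0 rose, with a median log2 fold change of -0.58, beside 0.03 over all genes. For this and the following lists, 30.5% of all genes were higher and 29.2% lower with NT siRNA, and 29.0% and 29.1% with FOXA1 siRNA. The lists were chosen with earlier results of these data known, so their counts describe the listed genes and test no list. The phosphoserine phosphatase PSPH (-0.23, adjusted p = 0.0778) and the mitochondrial folate enzyme ALDH1L2 (-0.18, adjusted p = 0.281) did not pass. GLDC, which cleaves glycine in mitochondria, had 2537, 2113 and 2564 in DMSO and 806.1, 594.4 and 759.2 in lapatinib, a log2 fold change of -1.72 ± 0.12 (adjusted p = 1.18e-05). MTHFD1L, which produces formate in mitochondria, changed by -1.58 ± 0.09 (adjusted p = 4.71e-06), and SHMT1, the cytosolic serine hydroxymethyltransferase, by -1.13 ± 0.07 (adjusted p = 7.55e-06). With FOXA1 siRNA 5 of the 9 fell and 0 rose (median -0.32), with GLDC at -1.68, and the log2 fold change of PSPH was 0.15 (adjusted p = 0.196).

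In this list 3 of 9 genes passed the interaction, beside 3.99% of all genes. Each had a higher log2 fold change for lapatinib after FOXA1 siRNA, which was a smaller fall, or for SFXN1 no called fall. MTHFD1, the cytosolic folate enzyme, went from 5612, 4904 and 5524 to 3041, 2824 and 3019 with NT siRNA, and from 6865, 6140 and 6770 to 5470, 5080 and 5244 with FOXA1 siRNA. The lapatinib libraries with FOXA1 siRNA thus stayed near the NT siRNA libraries without drug, and the difference in response was 0.53 ± 0.09 on the log2 scale (adjusted p = 0.00440). MTHFD1L differed by 0.65 ± 0.15 (adjusted p = 0.0227) and SFXN1, a mitochondrial serine carrier, by 0.31 ± 0.07 (adjusted p = 0.0262). MTHFD1L fell by less after FOXA1 siRNA, with log2 fold changes of -1.58 (NT siRNA) and -0.94 (FOXA1 siRNA). SFXN1 fell with NT siRNA by 0.23 on the log2 scale (adjusted p = 0.0118), and with FOXA1 siRNA its log2 fold change was 0.07 (adjusted p = 0.237). Of 19 other fits of the interaction, 14 called MTHFD1L (adjusted p up to 0.0617) and 14 called SFXN1 (adjusted p up to 0.0730).

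Genes that act upstream of ATF4 moved in both directions. Of 16 genes for eIF2alpha kinases, their regulators, eIF2 and eIF2B subunits and the phosphatase subunits, 6 rose and 7 fell with lapatinib and NT siRNA. The kinase of the endoplasmic reticulum EIF2AK3 (PERK) had 971.3, 984.7 and 994.1 in DMSO and 1839, 1836 and 1712 in lapatinib, a log2 fold change of 0.89 ± 0.06 (adjusted p = 8.22e-06). The heme-regulated kinase EIF2AK1 changed by 0.77 ± 0.06 (adjusted p = 1.78e-05) and PPP1R15A (GADD34), the stress-induced phosphatase subunit that reverses eIF2alpha phosphorylation, by 0.78 ± 0.13 (adjusted p = 0.00111). The amino acid-sensing kinase EIF2AK4 (GCN2) had a log2 fold change of -0.09 (adjusted p = 0.180). EIF2B3, EIF2B2 and EIF2S1, subunits of eIF2B and eIF2, fell with log2 fold changes of -0.86, -0.58 and -0.54. With FOXA1 siRNA 6 rose and 8 fell, and PPP1R15A changed by 1.0 ± 0.10.

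Among 9 bZIP partners of ATF4, 5 rose and 1 fell with lapatinib and NT siRNA, with CEBPD at a log2 fold change of 0.85 ± 0.22 (adjusted p = 0.00958) and the paralog ATF5 at -0.67 ± 0.10 (adjusted p = 0.000415). With FOXA1 siRNA 5 rose and 2 fell. ATF7 was called higher on counts with NT siRNA (log2 fold change 0.44 ± 0.09, adjusted p = 0.00284). Its mean TPM there was 24.3 in DMSO and 22.1 in lapatinib, so its direction depends on the measure. Of 7 paralogs of the members, 0 were called higher and 2 lower with NT siRNA, and 0 higher and 4 lower with FOXA1 siRNA. CHAC2, a glutathione-degrading enzyme like CHAC1, had 335.9, 253.8 and 294.3 in DMSO and 73.71, 69.58 and 87.20 in lapatinib. Its log2 fold change was -1.91 ± 0.15 (adjusted p = 1.92e-05) with NT siRNA and -1.94 ± 0.14 (adjusted p = 1.69e-05) with FOXA1 siRNA, opposite in sign to that of CHAC1.

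Other outputs of ATF4 and CHOP also moved in both directions. With NT siRNA 3 of the 10 tested rose and 4 fell. KLHL24, an adaptor of a ubiquitin ligase, had 1299, 1218 and 1009 in DMSO and 5438, 6458 and 4924 in lapatinib, a log2 fold change of 2.28 ± 0.12 (adjusted p = 4.12e-06). NUPR1, a small chromatin-associated stress protein, had 1193, 1825 and 1111 against 4466, 6129 and 4451, a log2 fold change of 1.88 ± 0.20 (adjusted p = 9.18e-05). BBC3 (PUMA), a proapoptotic BCL2 family member, changed by 1.32 ± 0.20 (adjusted p = 0.000607), while TNFRSF10B, ERO1L and VLDLR fell with log2 fold changes of -0.66, -0.60 and -0.59. The call of TNFRSF10B was lost in some of the other fits (adjusted p up to 0.0759). With FOXA1 siRNA 3 rose, the same KLHL24, NUPR1 and BBC3, and 1 fell.

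The amino acid transporters induced by ATF4 were split, with 4 of 8 tested higher and 4 lower with NT siRNA. SLC6A9, a glycine transporter, changed by 1.23 ± 0.10 (adjusted p = 2.26e-05) and SLC7A11, the cystine transporter, by 1.02 ± 0.15 (adjusted p = 0.000498). SLC1A4, SLC7A1 and SLC7A5 had log2 fold changes of -0.71, -0.37 and -0.33. With FOXA1 siRNA 4 rose and 1 fell. Of 12 cytosolic aminoacyl-tRNA synthetases 3 rose and 5 fell with NT siRNA, and 3 rose and 6 fell with FOXA1 siRNA, within a range of -0.77 to 0.42 with NT siRNA. Other enzymes of amino acid synthesis gave 4 higher and 6 lower of 14 with NT siRNA and 5 higher and 6 lower with FOXA1 siRNA, from the proline enzyme PYCRL at -1.10 ± 0.09 to the glutamine synthetase GLUL at 0.60 ± 0.08 with NT siRNA. Of 14 endoplasmic reticulum chaperones and unfolded protein response genes 6 rose and 6 fell with NT siRNA, and 7 rose and 5 fell with FOXA1 siRNA. Within it HERPUD1, a degradation factor, had a log2 fold change of 1.24 ± 0.12 (adjusted p = 4.90e-05) and the chaperone cofactor SDF2L1 of -1.43 ± 0.08 (adjusted p = 3.85e-06) with NT siRNA.

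**Figure D4:**
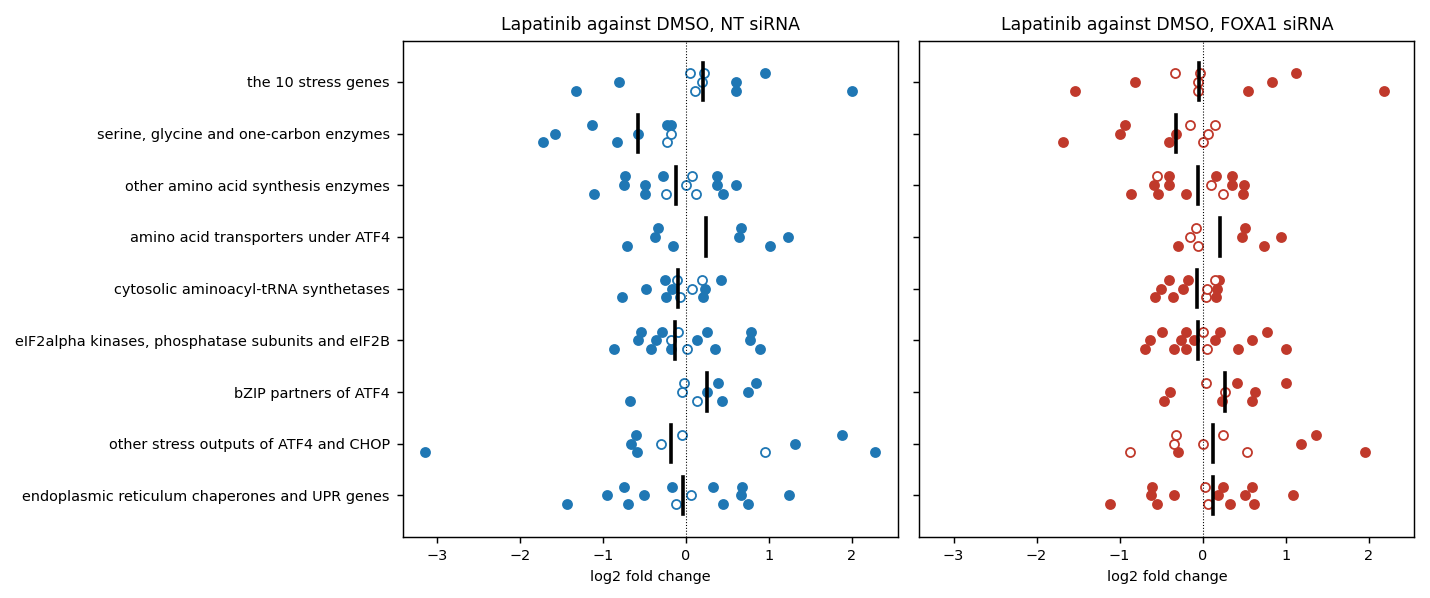
log2 fold changes for lapatinib against DMSO (x axes) of the 10 stress genes and 8 gene lists (rows) with NT siRNA (left) and FOXA1 siRNA (right). Points are genes, filled where the adjusted p was under 0.05, and vertical bars are list medians. The serine, glycine and folate row has its median at -0.58 on the left, where all 9 genes lie below 0, and at -0.32 on the right, and every other list has genes on both sides of 0 in both panels.

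After FOXA1 siRNA the mTORC1 inhibitors other than DDIT4 and SESN2 gave 3 higher and 0 lower of 8 in DMSO and 2 higher and 1 lower in lapatinib, where the shares of all genes were 21.9% and 21.3% (DMSO) and 22.7% and 22.2% (lapatinib). DEPDC6, the older symbol of DEPTOR, which binds and inhibits mTOR, had 432.5, 464.1 and 400.7 with NT siRNA and 1277, 1068 and 1345 with FOXA1 siRNA in DMSO. The log2 fold change was 1.52 ± 0.10 (adjusted p = 3.07e-05), and it was 1.36 ± 0.07 (adjusted p = 7.05e-06) in lapatinib. DDIT4L, the paralog of DDIT4, singled out after its values were seen, had 46.30, 51.56 and 37.39 against 95.93, 120.0 and 92.33 in DMSO, a log2 fold change of 1.20 ± 0.19 (adjusted p = 0.00166). TRIB2, a paralog of TRIB3, changed by -0.65 ± 0.08 (adjusted p = 0.000638) in DMSO and -1.15 ± 0.18 (adjusted p = 0.00141) in lapatinib, whereas TRIB1 changed by 0.41 ± 0.09 (adjusted p = 0.00764) in DMSO. In all, 3 of the 7 paralogs were higher and 1 lower in DMSO. SESN1 and DDIT4L are in both lists and count among the higher genes of each.

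In the remaining lists, to be read against the same shares, FOXA1 siRNA in DMSO gave 2 higher and 2 lower of 9 serine and glycine genes, with SFXN1 at 0.60 ± 0.04 (adjusted p = 4.00e-05) and GLDC at -0.54 ± 0.08 (adjusted p = 0.00112). Transporters gave 1 higher and 5 lower of 8, among them SLC7A5, the leucine carrier, from 38886, 42135 and 40278 to 25259, 28465 and 24971, a log2 fold change of -0.61 ± 0.06 (adjusted p = 0.000185). The eIF2alpha list gave 7 higher and 2 lower of 16, led by GCN1L1, the coactivator of GCN2, at 0.55 ± 0.05 (adjusted p = 8.28e-05). The synthetases gave 6 higher and 1 lower of 12, the other amino acid enzymes 3 higher and 7 lower of 14, the bZIP partners 2 higher and 1 lower of 9, the chaperones 4 higher and 6 lower of 14 and the other stress outputs 3 higher and 1 lower of 10. KLHL24 was higher by 1.07 ± 0.14 on the log2 scale (adjusted p = 0.000591). FOXA1 siRNA in lapatinib gave 3 higher and 1 lower of 9 serine and glycine genes, 1 and 3 of 8 transporters, 5 and 0 of 16 eIF2alpha genes and 3 and 2 of 12 synthetases. The other amino acid enzymes gave 3 higher and 4 lower of 14, the bZIP partners 2 and 2 of 9, the chaperones 4 and 3 of 14, the other stress outputs 5 and 3 of 9 and the paralogs 2 and 1 of 7.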

How the data were processed

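PolyA RNA of 12 SKBR-3 libraries was sequenced. Per the methods, the authors aligned reads to hg38 with STAR, and quantified them with Salmon, but the columns deposited by the authors carry the names that RSEM gives, and the submitters' processing notes name RSEM too. The authors deposited an expected count, an estimated number of reads, and a TPM value for each of 20531 genes, with replicates kept separate. Here the expected counts were rounded and tested in R 4.3.3 with edgeR 4.0.16 (TMM, quasi-likelihood test). Each comparison was fitted on its 6 libraries and the interaction on all 12, keeping genes that reached 10 counts in 1 or more of the fitted libraries. A call needed a Benjamini-Hochberg adjusted p under 0.05. The methods name DESeq2, which was run as an alternative (DESeq2 1.42.0). TPM values served for levels between genes and for summed marker levels, and no test was run on them. Depth was 25749578 to 32271850 counts per library (median 30542429). Intervals of log2 fold changes are 95% intervals of the fit.

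The replicate numbers of the labels paired the libraries: deviations from group means correlated at 0.427 on average between same-numbered libraries (lowest 0.267 of 18 pairs, over 10812 genes) and at -0.199 between others. Deviations sum to 0 within each group, so the negative second value largely follows from the first and is no separate evidence. Nothing says whether replicates were separate cultures, so p-values measure the spread between these libraries. The members and gene lists were chosen with earlier results of these data known. Named genes were the members, FOXA1, for every list and comparison the called genes with the biggest log2 fold changes (3 per direction) whose mean normalized count reached 100, and the 5 genes nearest in expression to ATF4 and to ASNS. The procedure was run on simulated counts with 2-fold changes and no shared effect of the replicate number. That run cannot show how it performs for smaller differences or for paired libraries. Promoter windows came from RefSeq, GRCh38.p14, and all 10 members matched. The authors' normalized column was not used here.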

Additional observations from a re-analysis of the deposited data

Results flagged for a closer look

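Outside the 10 stress genes, 10 list genes were named for a lapatinib response that differed between FOXA1 and NT siRNA. Genes were named only if they passed the interaction test of edgeR's quasi-likelihood fit, so their number is no result about the lists. Of all 14012 genes, 3.99% passed with a higher and 3.20% with a lower response after FOXA1 siRNA. As FOXA1 minus NT siRNA on the log2 scale, the difference was 0.65 for MTHFD1L, 0.53 for MTHFD1, 0.31 for SFXN1, 0.62 for VLDLR (adjusted p = 0.0211), 0.31 for ERO1L (adjusted p = 0.0454), 0.34 for LARS (adjusted p = 0.00381), 0.34 for CRELD2 (adjusted p = 0.0227), 0.19 for HSP90B1 (adjusted p = 0.0139), 0.29 for SLC7A5 (adjusted p = 0.0335) and -0.48 for SLC6A9 (adjusted p = 0.0336). A positive difference is a smaller fall for a gene that lapatinib lowered. The log2 fold changes of VLDLR were -0.59 (NT siRNA) and 0.01 (FOXA1 siRNA). In the same order they were -0.95 and -0.62 for CRELD2 and -0.60 and -0.30 for ERO1L. SLC6A9 rose by less after FOXA1 siRNA, from 1.23 to 0.74. Of 19 other fits, 14 called MTHFD1L, 14 SFXN1, 14 VLDLR, 13 CRELD2, 11 SLC6A9, 10 SLC7A5 and 9 ERO1L (adjusted p up to 0.112). All 19 called MTHFD1, LARS and HSP90B1, and none of the 10 genes turned in direction.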

How the results depend on the processing

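RLE and upper-quartile scaling, DESeq2, both other filters on low counts and a model of all 12 libraries kept each count of members within 1.5 times its value. A 2-fold minimum gave 1 higher and 1 lower for lapatinib with NT siRNA, 2 and 1 with FOXA1 siRNA, 1 and 0 for FOXA1 siRNA in DMSO and 0 lower in lapatinib, and an adjusted p under 0.01 gave 1 lower there. With the replicate number as a block, FOXA1 siRNA gave 5 lower in DMSO and 2 higher and 5 lower in lapatinib, and the interaction 1 higher and 1 lower. Over all 14012 genes the block raised the interaction calls from 559 to 1562 higher and from 449 to 1292 lower. Apart from TRIB3 (NT siRNA), SESN2 and the genes named beside the results, it changed no call of a member. Without the number 2 libraries there were 4 lower for lapatinib with FOXA1 siRNA, 2 higher and 5 lower for FOXA1 siRNA in lapatinib, and 1 higher and 2 lower for the interaction. SESN2 in DMSO was lost under upper-quartile scaling (adjusted p = 0.0514) and both other filters (adjusted p = 0.0602 and 0.0508), and ATF4 in lapatinib passed in DESeq2 (adjusted p = 0.0185) and without a filter (adjusted p = 0.0464).

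Leaving out 1 library gave 1 to 2 members higher and 1 to 4 lower for FOXA1 siRNA in lapatinib and 0 to 1 in each direction for the interaction. Values that were not called turned in direction. For lapatinib with NT siRNA, DDIT4 ranged from -0.22 to 0.36. For lapatinib with FOXA1 siRNA, DDIT4 ranged from -0.16 to 0.07 and TRIB3 from -0.22 to 0.08. For FOXA1 siRNA in lapatinib, ATF3 ranged from -0.20 to 0.07, CHAC1 from -0.52 to 0.35 and PHGDH from -0.20 to 0.09. For the interaction, ATF4 ranged from -0.17 to 0.09, DDIT3 from -0.31 to 0.09, DDIT4 from -0.43 to 0.17, CHAC1 from -0.17 to 0.69 and PHGDH from -0.11 to 0.18, and PHGDH was -0.01 with at least 10 counts in every library. The cause was not tested. Of 186 calls of named list genes, 158 held in every other fit in which they were checked and 0 turned. The model of all 12 libraries was not checked for these genes. With 3 replicates, wide intervals such as that of CHAC1 limit what the interaction can resolve in the fit without the replicate number as a block.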
